A study of Mus musculus with 6 samples.

Results

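The melanocyte-derived intermediate cells of the stria vascularis were followed through 7 genes chosen by name, *Mitf*, *Dct*, *Tyr*, *Tyrp1*, *Kit*, *Ednrb* and *Slc45a2*. Of these, 6 are among the 14865 genes listed in the deposited table, and *Tyrp1* was not analysed here. All 6 passed the minimum for testing, a value of 40 normalized reads or more in any library, which left 14455 genes. The RNA came from cochlear ducts of mice labelled C57BL/6 on postnatal day 8, with 3 libraries for each of 2 genotypes. The Gfi1+/+ mice carried 2 wild-type copies of *Gfi1*, a zinc finger transcriptional repressor that hair cells and blood cells need. The Gfi1cre/+ mice carried a knock-in allele in which Cre recombinase replaces part of the *Gfi1* coding exons, so that Cre follows the *Gfi1* promoter and 1 functional copy is left. By the study's methods, the line arose from mixed 129S6 and C57BL/6J stock and was kept on C57BL/6J. A Gfi1+/+ library held the RNA of 1 mouse, whereas a Gfi1cre/+ library pooled 3 mice, so the spread between Gfi1cre/+ libraries is a spread of averages over mice.

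The stria vascularis lines the lateral wall of the cochlear duct and has marginal, intermediate and basal cells. Intermediate cells descend from the neural crest and are melanocytes that have settled between the epithelial marginal cells and the basal cells. They carry the potassium channel KCNJ10 that underlies the endocochlear potential, and mice that lack melanocytes in the stria are deaf. MITF is the transcription factor that commits and maintains the lineage, KIT and EDNRB are receptors for Kit ligand and endothelin 3 on which melanoblast migration and survival depend, TYR and DCT are melanin-synthesis enzymes, and SLC45A2 is a melanosome membrane transporter.

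MITF is known to act through an E-box, the M-box, in the promoters of pigment enzyme genes, and so the stretches of the *Tyr* and *Dct* promoters around that sequence are shown with the melanocyte promoter of *Mitf* itself. The sequences are RefSeq's for GRCm38.p6 (mm10), each 60 bases, written 5′ to 3′ on the strand of the gene. Capitals mark the motif TCATGTG in *Tyr* and *Dct*, and in *Mitf* the cyclic AMP response element TGACGTCA. The *Tyr* stretch is chr7:87493513-87493572 on the minus strand, that of *Dct* is chr14:118052364-118052423 on the minus strand, and that of *Mitf* is chr6:97991604-97991663 on the plus strand.
*Tyr*: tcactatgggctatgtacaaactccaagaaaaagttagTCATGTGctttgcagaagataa
*Dct*: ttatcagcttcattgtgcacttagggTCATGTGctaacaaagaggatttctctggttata
*Mitf*: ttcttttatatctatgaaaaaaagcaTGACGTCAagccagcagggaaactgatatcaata

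The first base of TCATGTG lies 22 bases before the annotated start in *Tyr* and 151 bases before it in *Dct*, and *Dct* holds the motif once more on the other strand, 232 bases before the start. The element TGACGTCA of *Mitf* begins 153 bases before the most downstream of its 3 annotated starts. Promoter windows of 300 bases, 250 of them before the start, were searched on both strands. TCATGTG was in 3.77% of the 32851 windows of all genes, its core CATGTG in 14.2%, the related E-box CACGTG in 7.15% and TGACGTCA in 1.79%. Of the 6 genes, 5 matched the promoter table, with 8 windows. None of the searched motifs was in the windows of *Kit* or *Ednrb*, and *Slc45a2* had no entry. A match describes the sequence and is not evidence of binding.

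The deposited values are whole read counts divided by a size factor for each library, and are called normalized reads here. The libraries held between 13603908 and 19359753 counted reads. *Gfi1* itself had between 147 and 160 normalized reads in Gfi1+/+ and between 130 and 139 in Gfi1cre/+, without overlap, although its counted exons include some that the knock-in keeps. Gfi1+/+ replicate 1 stood apart from the other libraries on the first principal component, which held 54.3% of the variance. *Xist*, expressed from the inactive X chromosome, had between 7338 and 8138 normalized reads in Gfi1+/+ and between 2301 and 5359 in Gfi1cre/+. The Y-linked *Ddx3y* had 0 reads in each Gfi1+/+ library, which allows up to 3 reads, and between 232 and 485 normalized reads in Gfi1cre/+, so that sex and genotype cannot be told apart in any comparison.

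The intermediate cell genes were expressed in every library, and none passed the test between genotypes over all genes. *Dct* was the 63rd most abundant of the 14865 genes. *Mitf*, *Ednrb* and *Tyr* were each lower on average in Gfi1cre/+, by 9.89%, 8.40% and 8.17%. For none of the 6 did limma's test on log2(normalized reads + 1) give a Benjamini-Hochberg adjusted p-value under 0.05 over all genes tested, where 0.0277% of all genes passed. At an unadjusted p-value under 0.05, 1 of the 6 passed, *Mitf*, where 3.04% of all genes did. The adjusted p-value was 0.999 for each of the 6.

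*Mitf* (ENSMUSG00000035158, chromosome 6, positions 97807052 to 98021349 of GRCm38, plus strand), the master regulator of the lineage, stood at 839, 862 and 796 normalized reads for Gfi1+/+ replicates 1, 2 and 3, and at 725, 739 and 787 for Gfi1cre/+ replicates 1, 2 and 3. Each Gfi1cre/+ library was thus below each Gfi1+/+ library, by a narrow margin between the nearest pair. Such a gap between the genotypes, in either direction, was found in 7.52% of all genes tested and in 1 of these 6. The group means were 832 ± 33.2 and 750 ± 32.5 (SD, n = 3). The log2 fold change, Gfi1cre/+ against Gfi1+/+, was -0.15 (standard error 0.0616, 95% interval -0.29 to -0.01, unadjusted p = 0.0375, adjusted p = 0.999 in limma's test; two-sided exact permutation p = 0.1, which is the minimum for groups of 3). The unadjusted p-value was above 0.05 when Gfi1+/+ replicate 1 (0.0731), Gfi1+/+ replicate 2 (0.118), Gfi1cre/+ replicate 1 (0.124) or Gfi1cre/+ replicate 2 (0.101) was left out, with log2 fold changes from -0.19 to -0.12 over all libraries left out in turn. The value is a single count over all exons, so the melanocyte isoform cannot be told from the transcripts of the other starts, which macrophages, osteoclasts and other cells use.

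*Kit* (ENSMUSG00000005672, chromosome 5, positions 75574916 to 75656722, plus strand), the receptor tyrosine kinase for Kit ligand, had 518, 572 and 637 normalized reads in the Gfi1+/+ replicates and 560, 607 and 539 in the Gfi1cre/+ replicates. All 3 Gfi1cre/+ libraries fell within the range of the Gfi1+/+ libraries. The log2 fold change was -0.01 (standard error 0.0868, 95% interval -0.21 to 0.18). *Kit* lies on the chromosome of the modified locus, 32.1 megabases from *Gfi1*. *Ednrb* (ENSMUSG00000022122, chromosome 14, positions 103814625 to 103844402, minus strand), the endothelin receptor type B, had 2361, 2294 and 1984 normalized reads in the Gfi1+/+ replicates and 1995, 2105 and 1982 in the Gfi1cre/+ replicates. Gfi1+/+ replicates 1 and 2 were the highest of the 6, while replicate 3 lay among the Gfi1cre/+ libraries. The log2 fold change was -0.12 (standard error 0.0724, 95% interval -0.29 to 0.04; exact permutation test, two-sided p = 0.3), and -0.07 without Gfi1+/+ replicate 1.

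*Dct* (ENSMUSG00000022129, chromosome 14, positions 118012790 to 118052244, minus strand), dopachrome tautomerase, had 16772, 17973 and 17276 normalized reads in the Gfi1+/+ replicates and 17712, 17790 and 16899 in the Gfi1cre/+ replicates. The genotypes overlapped throughout, and the log2 fold change was 0.01 (standard error 0.0630, 95% interval -0.13 to 0.15). Its coefficient of variation over the 6 libraries was 2.86%. Its SD on the log2 scale was 0.0414, against a median of 0.0806 for the 70 tested genes within 1.5-fold of its level, of which 10% had a smaller SD.

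*Tyr* (ENSMUSG00000004651, chromosome 7, positions 87424771 to 87493512, minus strand), tyrosinase, the rate-limiting enzyme of melanin synthesis, had 1581, 1802 and 1437 normalized reads in the Gfi1+/+ replicates and 1532, 1490 and 1405 in the Gfi1cre/+ replicates. It was the most variable of the 6, with a coefficient of variation of 9.26%, and Gfi1+/+ replicate 2 was the highest library. The log2 fold change was -0.12 (standard error 0.0830, 95% interval -0.31 to 0.07; exact permutation test, two-sided p = 0.4), and -0.03 without Gfi1+/+ replicate 2. Without Gfi1+/+ replicate 3 instead, it was -0.19 for *Tyr* and -0.20 for *Ednrb*, and both passed an unadjusted p-value of 0.05 (0.0169 and 0.00291 in limma's test), in a fit where 16.2% of all genes tested did so. *Slc45a2* (ENSMUSG00000022243, chromosome 15, positions 11000721 to 11029233, plus strand), a melanosome transporter, was the least abundant, with 156, 152 and 158 normalized reads in the Gfi1+/+ replicates and 158, 146 and 143 in the Gfi1cre/+ replicates. These rest on between 126 and 182 counted reads per library. The genotypes overlapped, and the log2 fold change was -0.06 (standard error 0.0951, 95% interval -0.27 to 0.16). Its SD on the log2 scale was 0.0594, against a median of 0.150 for the 2089 tested genes of like level. With so few counted reads, a small SD over 6 libraries is not evidence of steady expression. Converted to percent of the Gfi1+/+ level, the 95% intervals of the 6 genes together ran from 80.9% (the lower bound of *Tyr*) to 113% (the upper bound of *Kit*). In bulk tissue, fewer intermediate cells and less RNA per cell cannot be told apart.

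**Figure D1:**
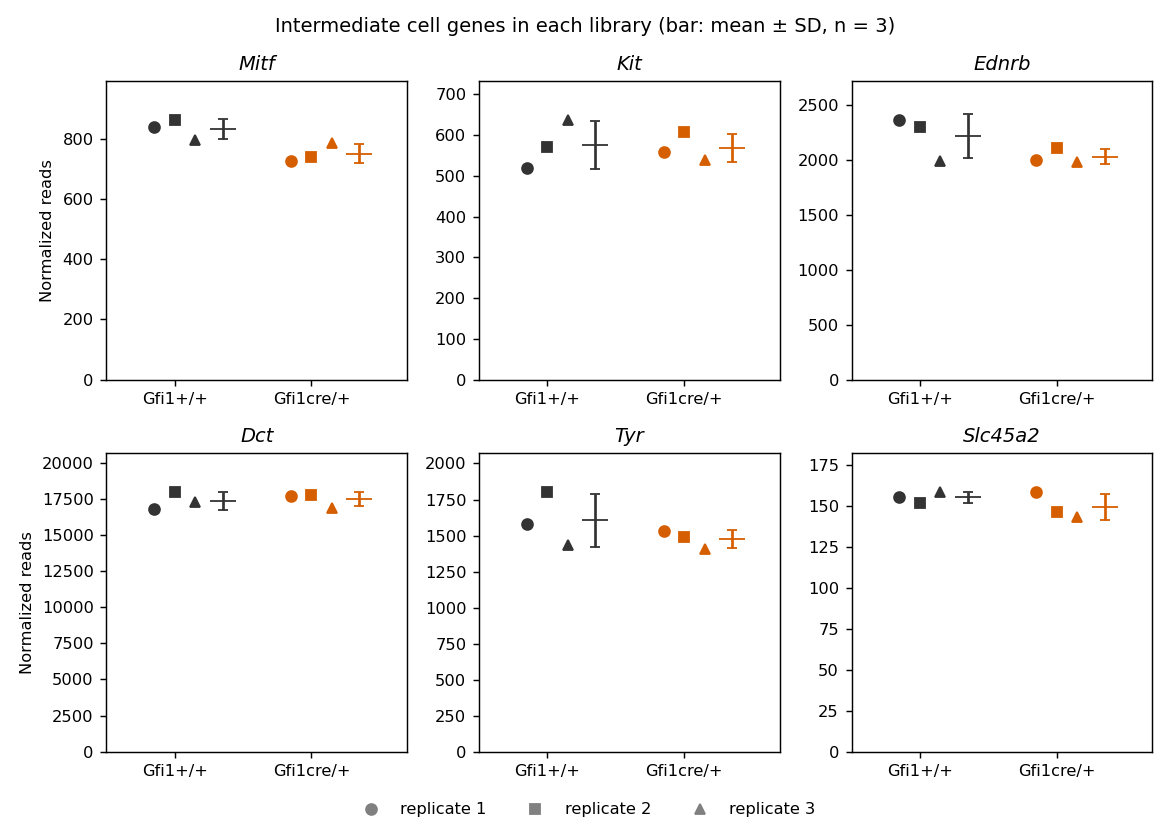
Normalized reads (linear axis from 0) of *Mitf*, *Kit*, *Ednrb*, *Dct*, *Tyr* and *Slc45a2* in each library, with a symbol for each replicate and the mean ± SD (n = 3) of each genotype beside it. *Mitf* is the gene in which the genotypes do not overlap, at 796 to 862 in Gfi1+/+ and 725 to 787 in Gfi1cre/+.

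Levels were compared between genes per kilobase of exon, with the union of all annotated exons of a gene as its length. On this scale *Dct* had 2942 ± 102 normalized reads per kilobase (SD, n = 3) in Gfi1+/+ and 2963 ± 83.8 in Gfi1cre/+. *Ednrb* followed with 519 ± 47.2 and 475 ± 15.8, *Tyr* with 226 ± 25.9 and 208 ± 9.09, and *Mitf* with 134 ± 5.36 and 121 ± 5.25. *Kit* had 64.6 ± 6.67 and 63.8 ± 3.94, and *Slc45a2* 52.0 ± 1.08 and 50.1 ± 2.65. The 6 genes kept this order in each library, and no neighbours in it overlapped, the nearest being *Kit* at 58.2 or more and *Slc45a2* at 53.1 or less. An order of levels per length describes RNA amounts and depends on the exon set.

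**Figure D2:**
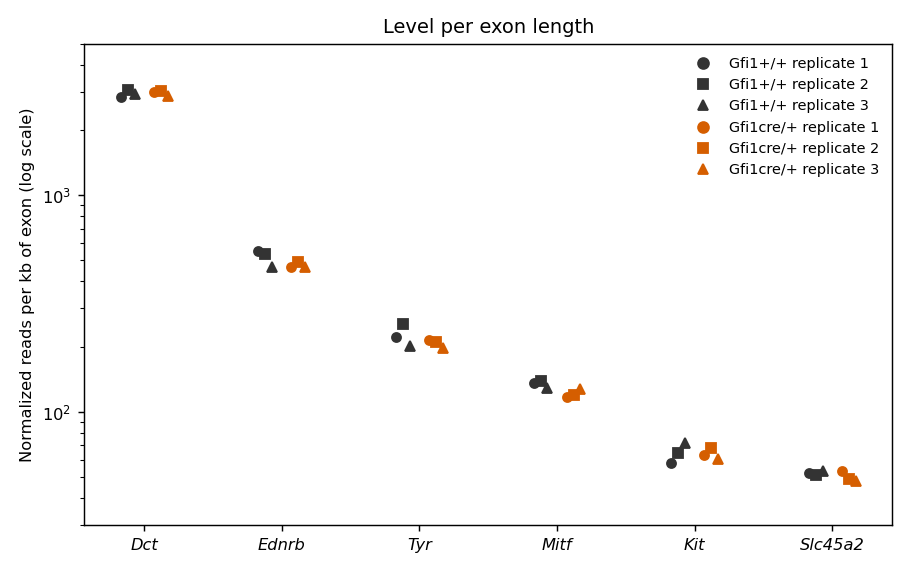
Normalized reads per kilobase of exon (log axis) of the 6 genes in each library, ordered from *Dct* to *Slc45a2*, with a colour for each genotype and a symbol for each replicate. *Dct*, at 2845 to 3049, is the highest in every library, and the genotypes lie together within each gene.

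Ratios between genes were also taken within each library. The ratio of *Dct* to *Tyr* per kilobase was 13.1 ± 1.27 in Gfi1+/+ and 14.3 ± 0.299 in Gfi1cre/+ (SD, n = 3). The ratio of *Dct* to *Mitf* was 21.0, 21.9 and 22.8 in the Gfi1+/+ replicates and 25.7, 25.3 and 22.6 in the Gfi1cre/+ replicates, so that Gfi1cre/+ replicate 3 lay within the Gfi1+/+ range (exact permutation test, two-sided p = 0.2, adjusted p = 0.7 over the 7 ratios computed). *Tyr* to *Mitf*, at 1.68 ± 0.129 and 1.72 ± 0.147, and *Ednrb* to *Mitf*, at 3.86 ± 0.234 and 3.93 ± 0.247, differed by less than the SD within either genotype. None of the 7 ratios had an unadjusted p-value under 0.2.

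Genes of the melanosome, the lysosome-related organelle in which pigment is made, were taken as a list of 14, of which 13 were tested and *Oca2* was not analysed here. None passed an unadjusted p-value of 0.05, 7 were lower and 6 higher in Gfi1cre/+, and their median log2 fold change was -0.01, beside a median of -0.00012 over all genes tested. *Pmel*, the structural protein of melanosome fibrils, had 1005, 1078 and 1090 normalized reads in the Gfi1+/+ replicates and 1046, 1028 and 876 in the Gfi1cre/+ replicates. Its Gfi1cre/+ replicate 3 was the lowest of the 6 libraries, and the log2 fold change was -0.11 (standard error 0.0779, 95% interval -0.28 to 0.07). *Trpm1*, a cation channel gene and MITF target, had 1108 ± 131 in Gfi1+/+ and 1080 ± 97.8 in Gfi1cre/+ (SD, n = 3). *Myo5a*, the myosin that carries melanosomes along actin, had a log2 fold change of -0.01, and *Atp7a*, the copper transporter that supplies tyrosinase, one of 0.09.

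Of 18 genes for the protein complexes that build lysosome-related organelles, 17 were tested. *Bloc1s2*, a subunit of the BLOC-1 complex, was the single gene with an unadjusted p-value under 0.05, beside 3.04% of all genes tested. It had 110, 114 and 117 normalized reads in the Gfi1+/+ replicates and 95.7, 81.7 and 90.6 in the Gfi1cre/+ replicates, without overlap. *Bloc1s2* was the 1 gene of the 17 without overlap, or 5.88%, beside 7.52% of all genes tested. Its log2 fold change was -0.35 (standard error 0.121, 95% interval -0.62 to -0.07, unadjusted p = 0.0186, adjusted p = 0.999 in limma's test), and the unadjusted p-value was 0.0687 without Gfi1cre/+ replicate 2. The other 16 genes had log2 fold changes between -0.05 and 0.09. The most abundant were *Ap3d1* (0.06) and *Ap3b1* (0.06), both subunits of the AP-3 adaptor, *Vps33a* (0.01) and *Vps18* (0.00), which act in vesicle fusion. These genes are used by many cell types besides pigment cells.

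Transcription factors of the melanocyte lineage were measured next. Of 15, 12 were listed and 11 tested, and none passed an unadjusted p-value of 0.05. *Sox10*, which activates *Mitf* and is also expressed in glia and in the otic epithelium, had 4685 ± 355 normalized reads in Gfi1+/+ and 4955 ± 221 in Gfi1cre/+ (SD, n = 3; log2 fold change 0.08, 95% interval -0.07 to 0.24). *Sox9* had a log2 fold change of 0.08, *Tfeb*, a relative of *Mitf*, one of 0.04, and *Tfe3*, another relative, one of -0.01. *Lef1*, a Wnt pathway factor, lay lower in each Gfi1cre/+ library (599 to 636) than in each Gfi1+/+ library (656 to 677), with a log2 fold change of -0.12 (95% interval -0.25 to 0.01). It was named after its values were seen, and the list held 1 such gene among 11, or 9.09%, near the 7.52% of all genes tested.

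For the ligands of the melanocyte receptors, 10 of 15 genes on a list of ligands, receptors and processing enzymes were listed and 9 tested, without a gene at an unadjusted p-value under 0.05. The most abundant were *Ece1*, the endothelin-converting enzyme (log2 fold change -0.0018), *Erbb2* (0.06) and *Erbb3* (-0.01), receptors of neuregulins, and *Met* (0.01), the receptor for hepatocyte growth factor. The ligand genes themselves were named after their values were seen. *Kitl*, which encodes Kit ligand, had 242, 169 and 194 normalized reads in the Gfi1+/+ replicates and 215, 195 and 225 in the Gfi1cre/+ replicates, with all Gfi1cre/+ libraries inside the Gfi1+/+ range. *Edn3*, which encodes endothelin 3, had 244, 275 and 241 in the Gfi1+/+ replicates and 226, 245 and 228 in the Gfi1cre/+ replicates, and its log2 fold change of -0.12 had a 95% interval of -0.31 to 0.08.

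All 9 other genes listed for intermediate cells were tested, and again none passed an unadjusted p-value of 0.05. *Kcnj10*, the channel gene of the endocochlear potential, had 3725, 3236 and 4415 normalized reads in the Gfi1+/+ replicates and 3628, 3763 and 3801 in the Gfi1cre/+ replicates, again with all Gfi1cre/+ libraries inside the Gfi1+/+ range. *Gpnmb*, a melanosome glycoprotein that macrophages and osteoclasts also make, had 4828 ± 300 in Gfi1+/+ and 5141 ± 181 in Gfi1cre/+ (SD, n = 3). *Gsta4*, a glutathione transferase, had 4837 ± 514 and 4590 ± 250. *Ptgds*, prostaglandin D2 synthase, was by far the most abundant of the list, at between 99128 and 118652 normalized reads, and had a log2 fold change of -0.02. Over the melanosome, organelle assembly, transcription factor, ligand and receptor, and intermediate cell lists together, 58 genes were tested. An unadjusted p-value under 0.05 was found for 1 of them, or 1.72%, and libraries of the genotypes did not overlap in 2, or 3.45%, beside 3.04% and 7.52% of all genes tested.

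**Figure D3:**
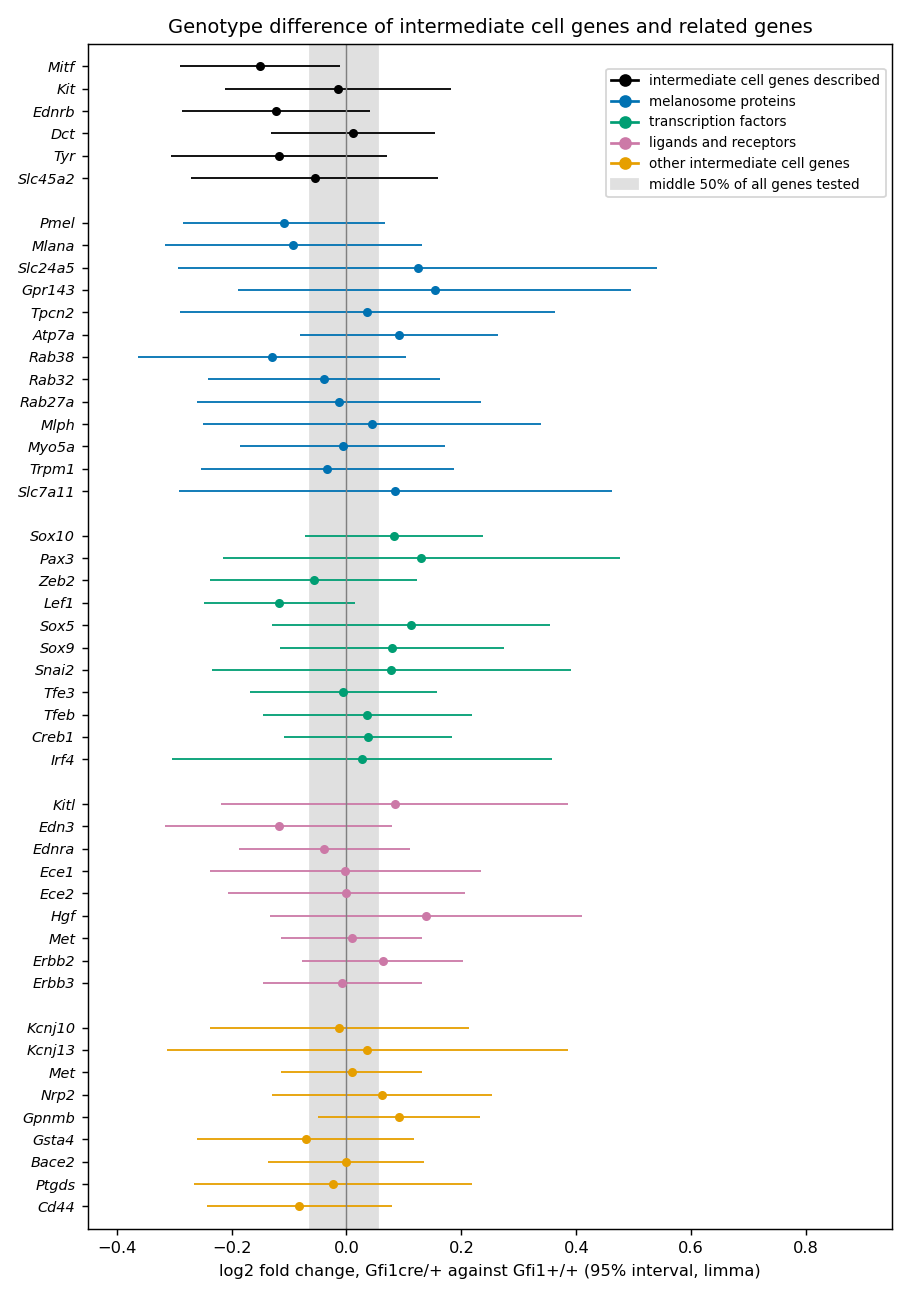
Log2 fold change, Gfi1cre/+ against Gfi1+/+, with its 95% interval from limma's test, for the 6 genes (black) and for the melanosome, transcription factor, ligand and receptor, and other intermediate cell lists (colours; *Met* is in 2 of them), with the middle 50% of all genes tested in grey (-0.06 to 0.05). The organelle assembly list is not drawn, and of the genes drawn *Mitf* is the one whose interval leaves out 0.

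The marginal cells, which secrete potassium into endolymph, and the basal cells border the intermediate cells, and 10 of their genes were tested. All 10 had log2 fold changes above 0, from 0.03 to 0.26, with a median of 0.10, where 50.1% of all genes tested were below 0. Their mean deviation from each gene's mean over the 6 libraries was -0.15, -0.04 and 0.03 in the Gfi1+/+ replicates on the log2 scale. In the Gfi1cre/+ replicates it was 0.09, 0.07 and -0.004. The libraries of the genotypes did not overlap in 2 of the 10, *Kcne1* and *Kcnq1*, beside 7.52% of all genes tested. *Kcne1*, a subunit of the potassium channel of marginal cells, was the 1 gene with an unadjusted p-value under 0.05, beside 3.04% of all genes tested (7455, 7963 and 7585 normalized reads in the Gfi1+/+ replicates, and 8620, 8322 and 8224 in the Gfi1cre/+ replicates, log2 fold change 0.13, 95% interval 0.00 to 0.26, unadjusted p = 0.0452, adjusted p = 0.999 in limma's test). *Kcne1* passed in 9 of 19 alternatives, and the p-value was above 0.05 without Gfi1+/+ replicate 1 (0.108) and without Gfi1cre/+ replicate 1 (0.156), 2 (0.0912) or 3 (0.0837) in limma's test. None of the 10 genes passed in these 4 fits. Without Gfi1+/+ replicate 2, 2 passed, and without Gfi1+/+ replicate 3, 6 did, in a fit where 16.2% of all genes tested passed. *Atp1b2* and *Slc12a2*, the most abundant of the list, had log2 fold changes of 0.07 and 0.05.

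Genes of neurons, erythroid cells, Schwann cells, osteoclasts and mast cells differed more between libraries than the 6 intermediate cell genes did, whereas macrophage genes, with mean deviations of -0.06 to 0.09 on the log2 scale, varied about as little. The summed level of the 6 genes was between 22228 and 23654 normalized reads in Gfi1+/+ and between 21755 and 22876 in Gfi1cre/+. Hair cell genes (8 tested) summed to between 8973 and 10274 in Gfi1+/+ and between 8885 and 9125 in Gfi1cre/+, with *Myo6* and *Ocm* the most abundant. Of the 8, 7 were lower in Gfi1cre/+, with a median log2 fold change of -0.15, where 50.1% of all genes tested were lower. The 7 include *Gfi1* itself (log2 fold change -0.18), the modified gene, whose lower value is not a finding about hair cells. *Gfi1* was also the 1 gene of this list, or 12.5%, without overlap between the genotypes, beside 7.52% of all genes tested. No hair cell gene had an unadjusted p-value under 0.05, but 4 did without Gfi1+/+ replicate 2, in a fit where 3.78% of all genes tested did so. Neuron genes (10 tested) summed to 10504, 3972 and 2523 in the Gfi1+/+ replicates and to between 1974 and 2803 in the Gfi1cre/+ replicates, with *Nefm* and *Tubb3* the most abundant and 6 genes lower at an unadjusted p-value under 0.05, beside 3.04% of all genes tested. That number was 2 without Gfi1+/+ replicate 1, 4 without Gfi1+/+ replicate 2, 9 without Gfi1+/+ replicate 3, and 1, 2 and 4 without Gfi1cre/+ replicates 1, 2 and 3. Gfi1+/+ replicate 1 held the most neuron RNA, and the summed level of intermediate cell genes was highest in Gfi1+/+ replicate 2. That sum is mostly *Dct*, which made up 16772 of the 22228 normalized reads in Gfi1+/+ replicate 1. Taken singly, *Ednrb* was highest in Gfi1+/+ replicate 1 and the others were not. A link between neuron RNA and these genes was not tested. Erythroid genes (11 of 12 tested, *Alas2* and *Slc4a1* the most abundant) summed to between 528 and 832 in Gfi1+/+ and between 914 and 2299 in Gfi1cre/+. Of the 11, 7 were higher at an unadjusted p-value under 0.05, beside the same 3.04%. The number of erythroid genes was 4, 7 and 7 without Gfi1+/+ replicates 1, 2 and 3, and 1, 6 and 8 without Gfi1cre/+ replicates 1, 2 and 3. Without Gfi1+/+ replicate 3, 16.2% of all genes tested passed.

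Some of the 6 genes are also expressed outside the stria. *Kit* marks mast cells and blood progenitors. Mast cell genes were scarce, with 4 of 9 listed and *Cpa3*, *Mcpt4*, *Tpsab1*, *Fcer1a* and *Ms4a2* not among the genes analysed here. Of the 4, *Cma1* had between 7.83 and 62.8 normalized reads and *Tpsb2* between 10.4 and 50.3, both highest in Gfi1+/+ replicate 2, where *Kit* was not the highest. *Gata2* and *Hdc*, which other cells express too, were the most abundant of the list, which summed to between 2955 and 3268 in Gfi1+/+ and between 3073 and 3397 in Gfi1cre/+. Nor was *Kit* highest in Gfi1cre/+ replicate 1, which held the most erythroid RNA.

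*Ednrb* is also expressed in glia and vessels. Schwann cell genes (11 tested, *S100b* and *Mbp* the most abundant) summed to 63693, 38971 and 50226 normalized reads in the Gfi1+/+ replicates and to between 43346 and 52444 in the Gfi1cre/+ replicates. The highest sum was in Gfi1+/+ replicate 1, the library with the highest *Ednrb*. The sum was lowest in Gfi1+/+ replicate 2, where *S100b* made up 20012 of it, but the mean deviation over the 11 genes was lowest in Gfi1cre/+ replicate 1 (-0.39), with -0.08 in Gfi1+/+ replicate 2 and 0.57 in Gfi1+/+ replicate 1. Endothelial genes (8 tested, *Emcn* and *Cdh5* the most abundant) summed to between 7841 and 8446 in Gfi1+/+ and between 7769 and 8854 in Gfi1cre/+. Of the 8, 2, *Pecam1* and *Tek*, were higher at an unadjusted p-value under 0.05, beside 3.04% of all genes tested. That number was 0, 2 and 2 without Gfi1+/+ replicates 1, 2 and 3, and 3, 0 and 0 without Gfi1cre/+ replicates 1, 2 and 3. Without Gfi1+/+ replicate 3, 16.2% of all genes tested passed. *Mitf* is also expressed in macrophages and osteoclasts. Macrophage genes (9 tested, *Csf1r* and *C1qa* the most abundant) summed to between 5293 and 5819 in Gfi1+/+ and between 5376 and 5766 in Gfi1cre/+. Of the 9, 1 (*Lyz2*) was higher at an unadjusted p-value under 0.05, beside the same 3.04% of all genes tested. *Lyz2* did not pass without Gfi1+/+ replicate 1 (0.137) or 2 (0.132) or Gfi1cre/+ replicate 1 (0.118) or 2 (0.121) in limma's test. Osteoclast genes (7 of 9 tested, *Ctsk* and *Mmp9* the most abundant) summed to 4969, 9999 and 5556 in the Gfi1+/+ replicates and to between 7228 and 9974 in the Gfi1cre/+ replicates. Of the 7, 6 had log2 fold changes above 0, where 50.1% of all genes tested were below 0, and none had an unadjusted p-value under 0.05. The part of these cells in the levels of *Mitf*, *Kit* and *Ednrb* was not tested.

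**Figure D4:**
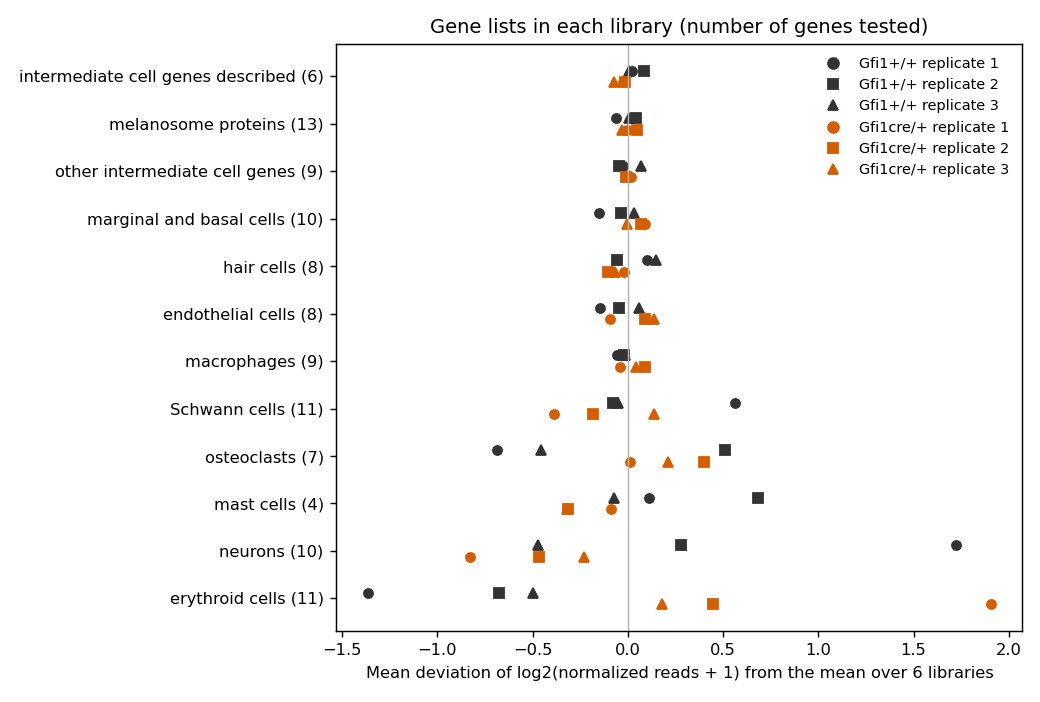
Mean deviation of log2(normalized reads + 1) from each gene's mean over the 6 libraries, averaged over the tested genes of each list (number in brackets), by library. The 6 intermediate cell genes stay between -0.07 and 0.09, whereas neuron genes reach 1.72 in Gfi1+/+ replicate 1 and erythroid genes 1.91 in Gfi1cre/+ replicate 1.

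The 6 genes did not vary together closely over the libraries. Pearson's r between pairs over the 6 libraries ran from -0.43 (*Kit* with *Ednrb*) to 0.76 (*Tyr* with *Ednrb*), with 0.71 for *Mitf* with *Ednrb*, 0.58 for *Mitf* with *Tyr* and -0.24 for *Mitf* with *Dct*. These are descriptions over 6 libraries that share genotype and normalization. The mean deviation of *Dct*, *Tyr* and *Slc45a2* from their own means ranged only from -0.09 in Gfi1cre/+ replicate 3 to 0.09 in Gfi1+/+ replicate 2. This pattern followed *Tyr* (r = 0.92) more than *Dct* (0.63) or *Slc45a2* (0.51), the genes it is made of. Among 13919 candidate genes, those most like this pattern over the 6 libraries were *Taok1* (r = 0.99), *Sat2* (0.99), *Rnf170* (0.98), *Tspan1* (0.98), *Mitd1* (0.98) and *Mrpl2* (0.98), and none of them is on the melanosome list. The highest of so many r values over only 6 libraries can be this high without any relation between the genes. Of the melanosome genes, *Mlana* (r = 0.77) and *Pmel* (0.75) were the most like the pattern, and *Slc24a5* (-0.79) was the least like it.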

How the data were processed

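Cochlear duct poly(A) RNA was measured in 6 libraries, 3 Gfi1+/+ and 3 Gfi1cre/+. According to the methods, the authors aligned paired-end reads to mm10 with TopHat, counted uniquely mapped reads per gene with HTSeq-count and kept genes with at least 40 reads. Annotation, strand setting and versions are not given in the sources used here, so antisense and near-identical genes may share reads. The authors deposited a normalized signal per gene, which the methods call quantile-normalized. In each library 100% of the signal values up to 2000 reads were whole multiples of 1 step (tolerance 0.1 reads), so they are read counts divided by a size factor. Table columns were assigned by their genotype letters and number.

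Values were tested on log2(value + 1), which understates changes of low genes, with limma 3.58.1 in R 4.3.3 (eBayes with a trend; genotype as the only term; two-sided; Benjamini-Hochberg over 14455 genes). Single values were compared by exact permutation tests. Gene models were GENCODE vM21 (GRCm38). The text names the 7 genes and *Gfi1*, the 4 most abundant genes of each pathway list and any at an unadjusted p-value below 0.05, the 2 most abundant of each cell list and the 6 genes most like the *Dct*, *Tyr* and *Slc45a2* pattern. *Lef1*, *Kitl*, *Edn3*, *Kcne1*, *Kcnq1*, *Cma1*, *Tpsb2*, *Pecam1*, *Tek*, *Lyz2*, *Mlana*, *Slc24a5*, *Xist* and *Ddx3y* were named after their values were seen. Genes and lists were chosen with earlier results of these data known. Alternatives were other pseudocounts, minima, variance models and scalings, edgeR 4.0.16 and DESeq2 1.42.0 on the recovered reads, a replicate block and each library left out. The limma, edgeR and DESeq2 fits of all 6 libraries were tested on simulated data. The p-values measure the spread between libraries, and limits for a count of 0 cover counting error only.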

Additional observations from a re-analysis of the deposited data

How the results depend on the processing

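Under 19 alternatives, 97 of the 114 log2 fold changes of the 6 genes kept their sign and their side of an unadjusted p-value of 0.05, and no adjusted p-value of the 6 was under 0.05. *Mitf* was lower in Gfi1cre/+ in all 19, between -0.19 and -0.12, and passed in 12. The number of the 6 genes passing was 0 without a variance trend, 0 with DESeq2 and 0 with the replicate block, 3 with array weights (*Mitf*, *Tyr* and *Ednrb*), and between 0 and 3 (without Gfi1+/+ replicate 3) with single libraries left out. Of all genes tested, 11.5% passed with array weights and 16.2% without Gfi1+/+ replicate 3, beside 3.04% with all libraries weighted equally. The number of the 58 related genes passing was 3 with array weights, 0 with DESeq2 and between 0 and 5 (without Gfi1+/+ replicate 3) with single libraries left out. Over all genes, 10 had an adjusted p-value under 0.05 with DESeq2, and the count ran from 0 without Gfi1cre/+ replicate 3 to 48 without Gfi1+/+ replicate 3, in limma's test. Signs turned for 3 genes: *Dct* was at -0.0201 with array weights and between -0.0131 (without Gfi1+/+ replicate 1) and 0.0368 (without Gfi1+/+ replicate 2) with single libraries left out, *Kit* between -0.0878 (without Gfi1+/+ replicate 1) and 0.0606 (without Gfi1+/+ replicate 3), and *Slc45a2* at 7.76e-05 with quantile normalization. The cause of these moves was not tested. Deviations of same-numbered libraries correlated at -0.0944, 0.107 and -0.0326, and those of differently numbered libraries at between -0.156 and 0.150. With so few libraries, these values cannot decide whether the replicate numbers pair the samples. With 3 libraries per genotype the precision is that of the 95% intervals given for each gene, and *Slc45a2* rests on the fewest reads.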
